A study of Mus musculus with 4 samples.

Results

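CD150, CD48, CD201, CD135, CD117 and CD34 are the 6 cell-surface proteins that were read with barcoded antibodies in these libraries. Each was also read as the mRNA of its own gene, in the same order Slamf1, Cd48, Procr, Flt3, Kit and Cd34. These 6 genes, of 32285 genes in the count tables, were taken because an antibody against their product was counted, and no measured level chose them. All 6 were found in every table. The protein and the mRNA of each were compared over whole libraries, over ranked groups of cell barcodes and per barcode.

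The cells were mouse bone marrow cells carrying the donor marker CD45.2, collected 10 weeks after transplantation and sorted as lineage negative, Sca1 positive and Kit positive. This sort, called LSK, takes in blood stem cells and the progenitors next to them. The 4 genotypes were control, Mll3 deleted, Mll4 deleted and Mll3/4 deleted, where Mll3 and Mll4 are the histone methyltransferases made by Kmt2c and Kmt2d. Each genotype was 1 library, so no genotype difference can be set against a spread between replicates and none was tested, and every interval given is a 95% counting interval only. The alleles, the way the deletion was made, the recipients and the number of mice are not given in the sources used here. All 4 groups share the transplantation and the sort, and the sort itself required Kit protein.

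Of 7682, 6560, 7702 and 5136 deposited barcodes in the control, Mll3, Mll4 and Mll3/4 libraries, 7274, 6101, 4793 and 4748 passed a minimum of 1000 genes and a maximum of 10% mitochondrial UMIs and were used. A UMI, or unique molecular identifier, marks 1 captured molecule. The barcodes used held 50792614 to 120700343 RNA UMIs and 6135915 to 13605600 antibody counts per library, and the Mll3/4 library was the shallowest on both. Kmt2c was at 68.9 CPM (UMIs per 1000000 of the library) in the control, 35.3 in the Mll3, 61.3 in the Mll4 and 42.3 in the Mll3/4 library. Kmt2d was at 24.6, 21.6, 22.6 and 25.4 CPM in the same order, so it did not separate the libraries labelled as Mll4 deleted from the others. The libraries are therefore called Mll3-labelled, Mll4-labelled and Mll3/4-labelled below. Sca1 mRNA, from Ly6a, and Ptprc, the gene of CD45, were present in all 4, at 93.4 to 255 and 111 to 279 CPM. Of the Mll3/4-labelled library, 4723 of the 4748 barcodes (99.5%) carried at least 3 of 8 B lineage marker genes. Of the barcodes of the Mll4-labelled library 31.3% carried at least 3 of 8 mast cell or basophil markers and 26.9% at least 3 of 8 macrophage or monocyte markers. At least 5 markers of these lists were carried by 12.3% and 9.89%. Barcodes of this library with at least 5 of 8 stem cell markers had a median of 53.4 CPM of mast cell or basophil markers, against 0 in the control. The 3-marker shares are therefore not shares of a cell type. In a value summed over a whole library, fewer cells of a type and less RNA per cell cannot be told apart. Between 7 and 14 barcode sequences were shared by each pair of libraries.

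The 6 proteins are the usual markers for dividing the LSK compartment into stem cells and multipotent progenitors. CD150 and CD48 are both SLAM family receptors, adhesion molecules of blood cells, and are used in opposite directions: stem cells carry CD150 and lack CD48. CD201, the endothelial protein C receptor, marks stem cells, while CD135, the receptor for Flt3 ligand, marks lymphoid-primed progenitors. CD117 is the receptor for stem cell factor, and CD34 is a sialomucin that rises as adult mouse stem cells become progenitors. CD117 and CD135 are receptor tyrosine kinases of the same class, class III.

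In the control library the 6 mRNAs were all detected, at 8.39 CPM for Slamf1 (interval 7.88 to 8.93, 1001 UMIs), 99.4 for Cd48, 32.3 for Procr, 64.0 for Flt3, 215 for Kit and 332 for Cd34 (39646 UMIs). Of all control antibody counts, CD48 took 64.6%, CD117 14.5%, CD34 12.2%, CD150 4.36%, CD201 2.96% and CD135 1.37%. These shares rank the antibodies' counts, not the amounts of protein, because each antibody binds and is labelled in its own way. The median control barcode carried 698 counts of CD48, with 10th and 90th percentiles of 81 and 2592, and 19 counts of CD135, with 10 and 38. CD48 counts thus spread widely among control barcodes, and CD135 counts sat within a narrow band near the low end.

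**Figure D1:**
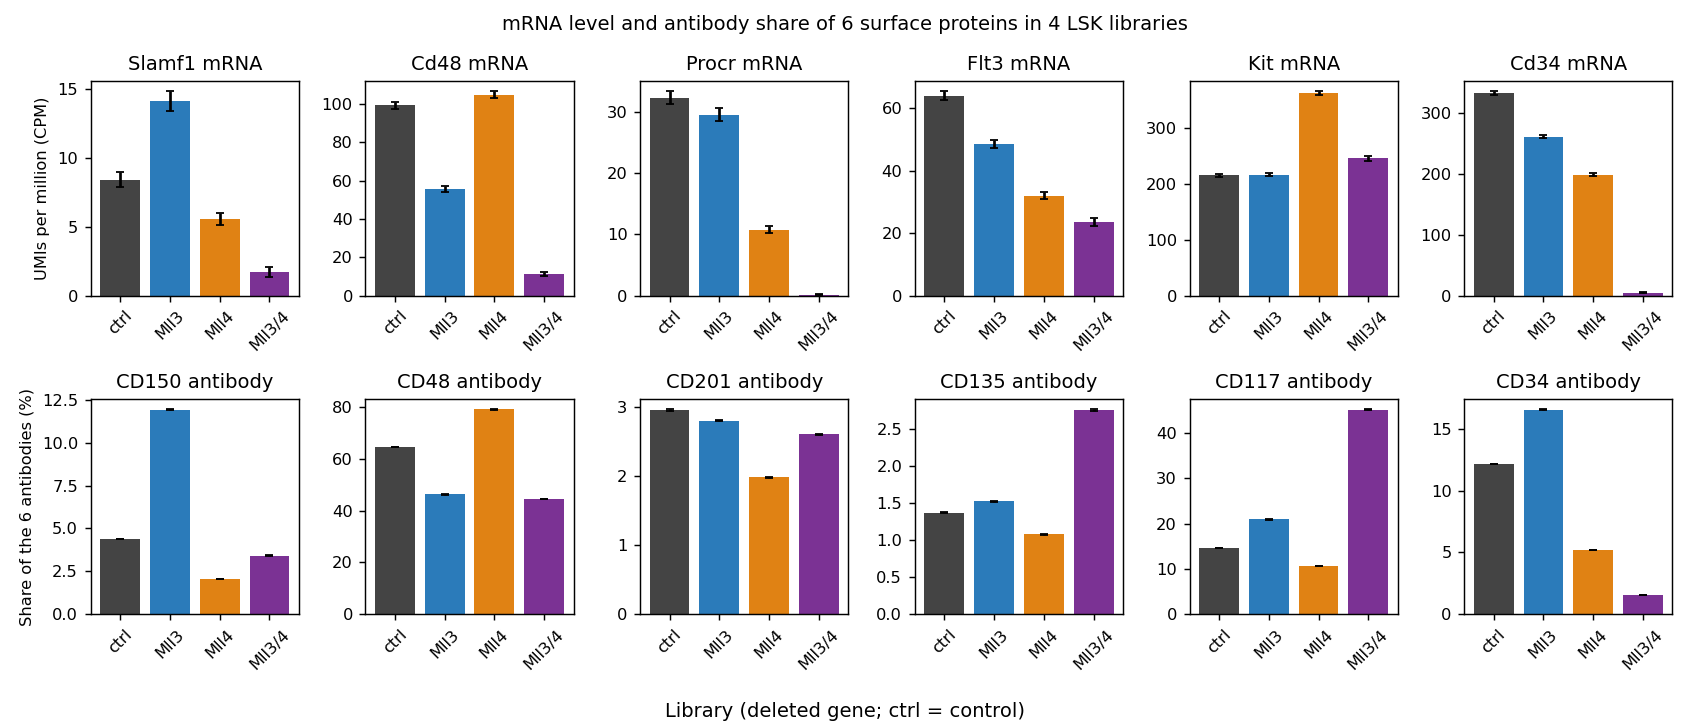
mRNA level (upper row, CPM) and share of the counts of all 6 antibodies (lower row, %) of each member in the 4 libraries; bars are library values and error bars 95% counting intervals. Cd34 mRNA and its antibody were both lowest in the Mll3/4-labelled library, at 5.18 CPM and 1.56%, while Procr mRNA was at 0.138 CPM there with CD201 at 2.60%.

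Slamf1 was at 14.1 CPM with the Mll3 label, 5.54 with the Mll4 label and 1.71 with the Mll3/4 label, against 8.39 in the control. The log2 ratios to the control were 0.75 (0.63 to 0.86), -0.60 (-0.74 to -0.46) and -2.28 (-2.63 to -1.97). CD150 took 11.9%, 2.04% and 3.41% of antibody counts there, log2 ratios of 1.45, -1.10 and -0.36. Slamf1 mRNA and CD150 were therefore both higher in the Mll3-labelled and, by share, both lower in the Mll4-labelled library, where CD150 was not called by mean count per barcode (log2 -0.31). With both genes labelled as deleted the mRNA was lower, and the direction of CD150 depended on the summary: its median count was 37 against 21 in the control, while its 90th percentile was 77 against 215. The log2 ratio of Slamf1 in the Mll4-labelled library was -0.00 without barcodes that carried 3 markers of mast, macrophage, T or plasma cells, a rule that left out 3150 of its 4793 barcodes. The part of these cells in its whole-library value was not tested.

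Cd48 was at 55.7, 105 and 11.4 CPM in the Mll3-, Mll4- and Mll3/4-labelled libraries, against 99.4 in the control. The mRNA was lower in the first and the last of these, by log2 ratios of -0.84 (-0.88 to -0.79) and -3.12 (-3.24 to -3.00). The share of CD48 was 46.2%, 79.2% and 44.5%, and its log2 ratios of -0.48, 0.29 and -0.54 all stayed under 1.5-fold. The medians differed more: the median barcode had 269 CD48 counts with the Mll3 label, 1852 with the Mll4 label and 103 with the Mll3/4 label, against 698. The 90th percentiles, 3090, 4410 and 1936 against 2592, lay closer together than the medians. CD48 in the Mll3/4-labelled library was thus low on most barcodes and high on a minority.

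Procr, whose product binds activated protein C, was at 32.3 CPM in the control, 29.4 in the Mll3-labelled and 10.8 in the Mll4-labelled library. The Mll3/4-labelled library held 7 Procr UMIs in all, which is 0.138 CPM (0.0554 to 0.284). The log2 ratios were -0.13, -1.58 (-1.68 to -1.49) and -7.77 (-9.19 to -6.83). CD201 did not follow it: its shares were 2.96%, 2.80%, 1.98% and 2.60%, and its median counts 22, 23, 30 and 29, in the order control, Mll3, Mll4, Mll3/4. Its 90th percentile was lower in the Mll3/4-labelled library, 57 against 97 in the control. No isotype control was among the 6 antibodies, so the level that unbound or unspecific antibody gives was not measured.

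Flt3 was at 64.0 CPM in the control and at 48.6, 32.0 and 23.5 in the Mll3-, Mll4- and Mll3/4-labelled libraries, log2 ratios of -0.40, -1.0 and -1.45. CD135 took 1.37%, 1.53%, 1.08% and 2.76%, so that in the Mll3/4-labelled library the antibody share was higher (log2 1.01) and the mRNA lower. The median CD135 count there was 31 against 19. Kit, in contrast, was within 1.5-fold of the control in that library, at 246 against 215 CPM (log2 0.19, 0.16 to 0.22). CD117 took 45.2% of the counts there against 14.5% (log2 1.64), with a median of 498 against 217. Kit was at 362 CPM in the Mll4-labelled library, log2 0.75 (0.73 to 0.77), while CD117 had a lower share, 10.5%, and a higher mean count per barcode (log2 0.33). In the Mll3-labelled library Kit was at 216 CPM, equal to the control within counting error, with CD117 at 20.9% and a median of 408.

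Cd34 was at 332 CPM in the control, 261 with the Mll3 label, 199 with the Mll4 label and 5.18 with the Mll3/4 label. The last log2 ratio was -6.0 (-6.18 to -5.83). CD34 protein took 12.2%, 16.6%, 5.20% and 1.56% of antibody counts, and its medians were 170, 272, 96 and 13. The 90th percentile in the Mll3/4-labelled library, 26, was below the 10th percentile of the control, 41. CD34 was the only member whose mRNA and antibody share were both lower by more than 1.5-fold there.

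The calls can be set beside all genes. A member was called where it differed at least 1.5-fold from the control with a counting interval that excluded no difference. In the Mll3-labelled library 1 of the 6 mRNAs was called higher and 1 lower, and among 6084 genes that averaged 20 CPM or more 5.19% were called, 1.99% higher and 3.21% lower. The Mll4-labelled library had 1 higher and 4 lower, beside 25.6% of 6046 genes, 11.8% higher and 13.8% lower. The Mll3/4-labelled library had 5 lower and none higher, beside 31.8% of 5979 genes, 13.1% higher and 18.7% lower. The median log2 ratio of the 6 mRNAs was -0.24, -0.67 and -2.70 in that order, and that of all genes tested 0.10, -0.12 and -0.07. Slamf1 missed the 20 CPM minimum in all 3 comparisons and Procr in 1 of them, so 5, 5 and 4 members passed it. Of the 6 antibody shares, 1 was called higher in the Mll3-labelled library, 2 lower in the Mll4-labelled library, and 2 higher and 1 lower in the Mll3/4-labelled library. All 3 comparisons use the same control library. Barcodes with at least 3 B lineage markers made up 99.5% of the Mll3/4-labelled and 0.729% of the control library, and the part of this makeup in the members' values was not tested.

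**Figure D2:**
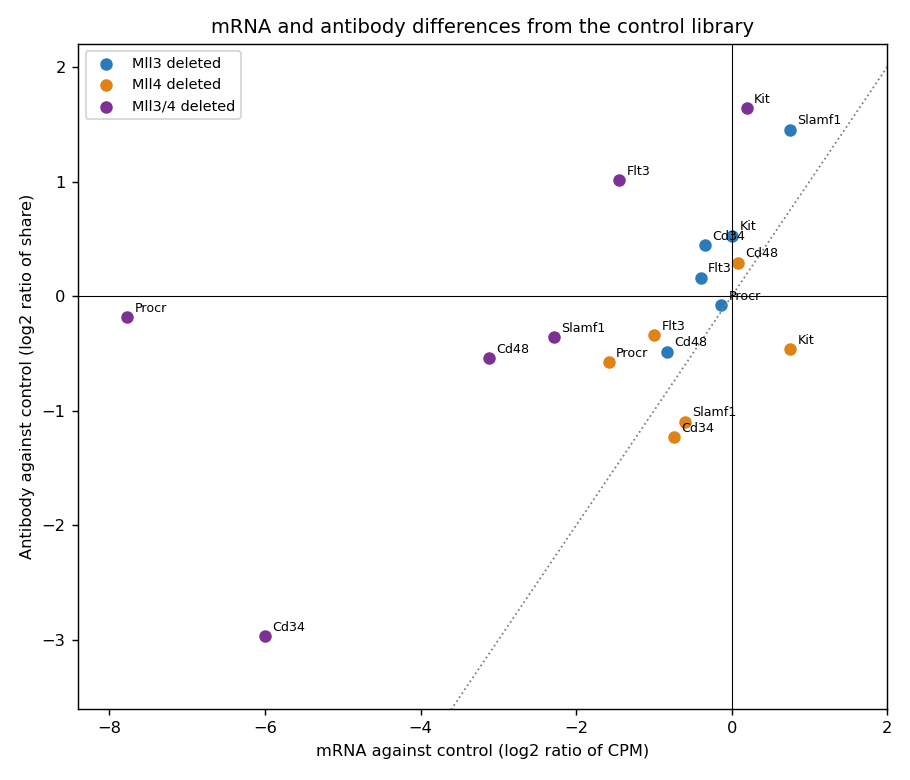
Difference of each member from the control library, as the log2 ratio of mRNA CPM (x axis) and of the antibody's share of all 6 (y axis), 1 point per member and mutant library; the dotted line marks equal log2 ratios. Procr in the Mll3/4-labelled library lies far to the left at -7.77 with CD201 at -0.18, and Cd34 lies at -6.0 and -2.97.

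The genes lie on 3 chromosomes (GRCm38, GENCODE release 21). Cd48 (ENSMUSG00000015355, chromosome 1, 171682009 to 171705258, plus strand) ends 61.9 kb before Slamf1 (ENSMUSG00000015316, chromosome 1, 171767127 to 171801184, plus strand). Their mRNAs went in opposite directions in the Mll3-labelled library although the genes are neighbours. Cd34 (ENSMUSG00000016494) lies further along the same chromosome, at 194938819 to 194961279 on the plus strand. Procr (ENSMUSG00000027611) lies on chromosome 2, at 155751117 to 155755471 on the plus strand. Kit (ENSMUSG00000005672, 75574916 to 75656722, plus strand) and Flt3 (ENSMUSG00000042817, 147330741 to 147400489, minus strand) are both on chromosome 5. An unnamed gene model overlaps Cd48 on its own strand, and others overlap Flt3 and Cd34 on the opposite strand, so some reads may be assigned between them.

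The 150 bases before the transcript start are shown for the 3 members whose mRNA was lowest against the control in the Mll3/4-labelled library, Procr, Cd34 and Cd48, and for Kit, whose mRNA was not called there. The sequences are RefSeq's (GRCm38.p6), 5′ to 3′ on the plus strand, and all 6 members were matched by symbol. They cover chr2:155750967-155751116 for Procr, chr1:194938669-194938818 for Cd34, chr1:171681842-171681991 for Cd48 and chr5:75574766-75574915 for Kit. Capitals mark matches on either strand to 4 short motifs of blood cell factors: AGATAA for GATA factors, TGTGGT for RUNX factors, AGGAAG for ETS factors and CANNTG, the E-box.
Procr: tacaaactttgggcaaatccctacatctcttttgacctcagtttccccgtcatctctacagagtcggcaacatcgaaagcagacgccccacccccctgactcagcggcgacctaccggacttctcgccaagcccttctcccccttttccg
Cd34: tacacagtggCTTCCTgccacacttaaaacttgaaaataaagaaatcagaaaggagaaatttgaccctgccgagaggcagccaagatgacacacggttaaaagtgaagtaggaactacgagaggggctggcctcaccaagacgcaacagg
Cd48: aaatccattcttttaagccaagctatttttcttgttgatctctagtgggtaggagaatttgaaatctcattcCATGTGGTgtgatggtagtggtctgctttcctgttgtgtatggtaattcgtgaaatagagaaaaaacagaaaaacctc
Kit: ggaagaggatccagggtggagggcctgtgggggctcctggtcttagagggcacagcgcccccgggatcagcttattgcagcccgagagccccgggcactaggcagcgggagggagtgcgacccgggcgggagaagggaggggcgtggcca

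Cd34 held 1 ETS match, read on the minus strand, and Cd48 held a RUNX match that overlaps an E-box match. Procr and Kit held none of the 4 in these windows. Over 32851 windows of the same length, 5.6% held the GATA, 8.4% the RUNX, 19.7% the ETS and 47.7% the E-box motif. The GC content was 36.7% in Cd48, 47.3% in Cd34, 56.0% in Procr and 70.7% in Kit. The windows of Slamf1 and Flt3, whose mRNAs were also called lower in that library, held 1 ETS match and none of the 4 motifs, in that order. No motif was thus found in the windows of all 5 members that were called lower there.

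The second comparison asked whether barcodes with more of a protein also held more of its mRNA. Barcodes of each library were ranked by the centred log ratio of 1 antibody, its log count relative to the barcode's mean over the 6 antibodies, and split into 5 equal parts, called quintiles. In the control all 6 mRNAs were called higher in the highest than in the lowest quintile of their own antibody. Summed over the 6 antibodies, 5.07% of the control's gene comparisons at 20 CPM or more were called higher. The same held for 6 of 6 in the Mll3-labelled library (6.07% of all gene comparisons), 6 of 6 in the Mll4-labelled library (12.7%) and 5 of 6 in the Mll3/4-labelled library (1.32%). Slamf1 missed the 20 CPM minimum in the control, Slamf1 and Procr in the Mll4-labelled, and Slamf1, Procr and Cd34 in the Mll3/4-labelled library. Over CD34 in the last library 0.622% of genes were called higher at 20 CPM or more, and 1.90% at 5 CPM or more, which Cd34 passed.

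Slamf1 in the control was at 0.601, 0.803, 2.13, 9.78 and 32.8 CPM from the lowest to the highest quintile of CD150. Its mRNA was flat over the first quintiles and climbed steeply in the last ones, by a log2 ratio of 5.73 (5.08 to 6.56) from end to end. Only 2 of 6010 genes at 20 CPM or more separated the CD150 quintiles further upward, and 3 genes at a minimum of 5 CPM, which Slamf1 itself passed. For the other members 9 genes stood above Cd48, 6 above Procr, 22 above Flt3, 151 above Kit and 4 above Cd34 in their own antibody's ranking in the control. The first 4 quintiles of the Mll4-labelled library stayed between 0.902 and 1.69 CPM and the highest reached 21.3, log2 3.75, which was 5.55 without barcodes with 3 markers of mature cells. Slamf1 in the Mll3/4-labelled library went from 11 UMIs in the lowest to 36 in the highest quintile, 0.973 to 4.08 CPM.

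Cd48 in the control was at 4.09, 16.4, 68.2, 137 and 201 CPM over the quintiles of CD48. The end-to-end log2 ratio was 5.61 in the control, 7.82 with the Mll3 label, 3.27 with the Mll4 label and 5.56 with the Mll3/4 label. The smaller Mll4 value was not seen without barcodes with 3 markers of mature cells, where it was 5.56 beside 5.63 in the control, and it was 4.56 without those with 5 markers. The first 3 quintiles of the Mll3/4-labelled library held 9, 8 and 8 UMIs, the next 31 and the highest 524, which is 49.5 CPM. Kept to barcodes with 3 B lineage markers, the log2 ratio there was 5.61. Cd48 mRNA in that library was thus found mainly in the quintile of barcodes with the most CD48.

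Procr in the control was at 8.56, 14.9, 24.6, 45 and 98.9 CPM over the quintiles of CD201, a step upward at each quintile. Its log2 ratios were 3.53 in the control, 4.22 in the Mll3-labelled and 3.30 in the Mll4-labelled library. The 5 quintiles of the Mll3/4-labelled library held 2, 0, 1, 0 and 4 Procr UMIs, log2 1.27 (-1.38 to 4.89), which was not called. The CD201 ranking there ran from a median count of 17 in the lowest to 46 in the highest quintile, without a detectable gradient of the mRNA at this depth.

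Flt3 in the control was at 30.6, 40.7, 46.8, 70.1 and 137 CPM over the quintiles of CD135, a log2 ratio of 2.16 (2.05 to 2.28). CD135 counts differed little between these quintiles, with medians of 12, 16, 19, 21 and 32. The corresponding log2 ratios of Flt3 were 2.76 with the Mll3 label, 2.22 with the Mll4 label and 1.69 with the Mll3/4 label, where Flt3 went from 14.3 to 46.2 CPM. Expressed per 1000 antibody counts of the barcode, CD135 separated Flt3 in the control by a log2 ratio of 0.57 in place of 2.16.

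Kit had the shallowest control gradient of the 6, 161, 210, 218, 233 and 251 CPM over the quintiles of CD117, log2 0.65 (0.59 to 0.71). This is 1.56-fold, close to the 1.5-fold limit, and it dropped below that limit with CD117 counts that were not centred (0.58), between the upper and the lower 50% of barcodes (0.31) and without barcodes that carried 3 markers of mature cells (0.58). The sort had already required Kit protein in every library. Kit in the Mll4-labelled library went from 113 to 180, 228, 296 and then 1254 CPM, log2 3.47, and the highest quintile stood apart from the other 4. Without barcodes with 3 or with 5 markers of mature cells, mast cells among them, this log2 ratio was 1.34 and 1.87. In the Mll3- and Mll3/4-labelled libraries the log2 ratios were 1.26 and 0.99.

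Cd34 in the control was at 76.2, 274, 379, 418 and 455 CPM over the quintiles of CD34. Most of the control's difference lay between the lowest quintile and the next. The log2 ratio was 2.58 in the control, 3.68 in the Mll3-labelled and 3.73 in the Mll4-labelled library. Per 1000 antibody counts of the barcode the control value was 0.86, and CD48 then separated Cd34 further than CD34 did, by 1.63. With the Mll3/4 label it was 5.97 (4.76 to 8.02), from 4, 3, 7 and 11 UMIs in the first 4 quintiles to 238 UMIs in the highest, which is 25.4 CPM and still under the lowest quintile of the control. Kept to barcodes with 3 B lineage markers, it was 4.89, and with counts that were not centred 8.81.

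**Figure D3:**
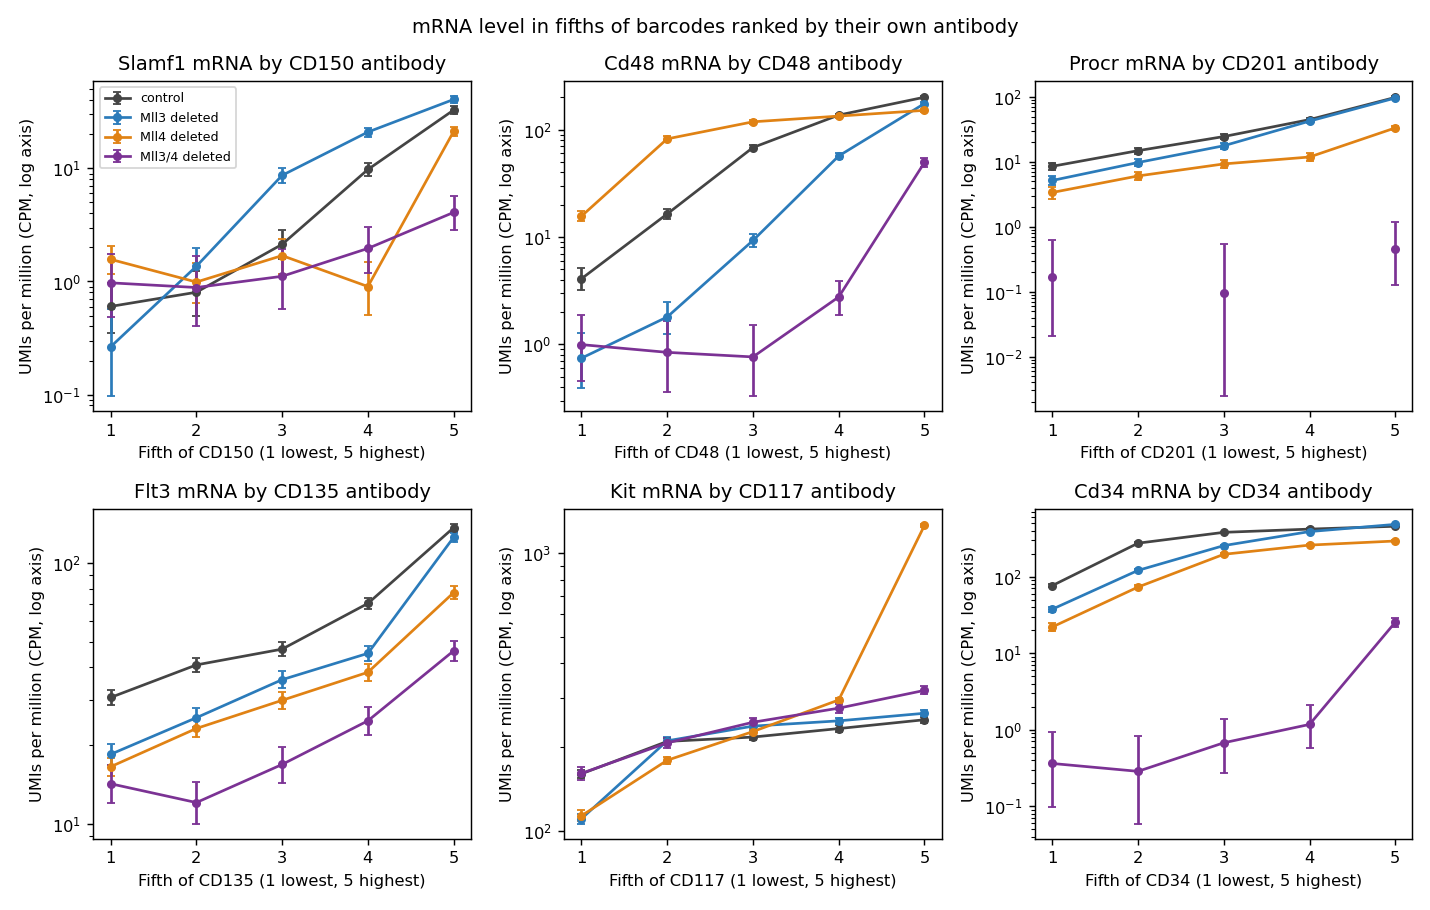
mRNA level (CPM, log axis) of each member in the 5 equal parts of barcodes ranked by its own antibody, with 1 line per library and 95% counting intervals; parts with 0 UMIs are not drawn. Cd48 spans 4.09 to 201 CPM in the control, Kit 161 to 251, and in the Mll4-labelled library Kit reaches 1254 CPM in the highest part.

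Each mRNA was also measured over the quintiles of the other 5 antibodies. Its own antibody gave the highest ratio for 5 of 6 mRNAs in the control, 5 with the Mll3 label, 6 with the Mll4 label and 5 with the Mll3/4 label. The exception in the control and the Mll3-labelled library was Flt3, which CD34 separated by a log2 ratio of 3.27 in the control, against 2.16 for CD135, and which CD48 separated by 3.98 in the Mll3-labelled library, against 2.76. With the Mll3/4 label it was Procr, on 7 UMIs in all. Slamf1 in the control was lower where CD48 was high (log2 -3.71) and where CD34 was high (-4.09), and higher where CD117 was high (2.10). Cd48 was lower where CD150 (-3.37) and CD201 (-3.10) were high. Flt3 and Cd34 were lower where CD150 was high, by -3.94 and -2.28, and Procr was higher there (1.26). The ratios for different antibodies are not independent, since the 6 centred values of a barcode add up to 0.

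In the mutants some of these relations had another size. Slamf1 in the Mll4-labelled library was lower by -5.58 where CD48 was high, with 10 UMIs in the highest against 407 in the lowest quintile. Kit there was lower where CD201 was high (-1.73), against a control value of 0.43. Cd48 in the Mll3/4-labelled library was lower where CD201 (-4.74), CD135 (-4.35) and CD117 (-3.62) were high, and Cd34 likewise, at -3.91, -5.22 and -4.33. Barcodes of that library ranked highest for these 3 antibodies thus held less Cd48 and Cd34 mRNA than those ranked lowest. A barcode with high CD48 or CD34 counts has lower centred values of the other antibodies. The part of this centring in these ratios was not tested.

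**Figure D4:**
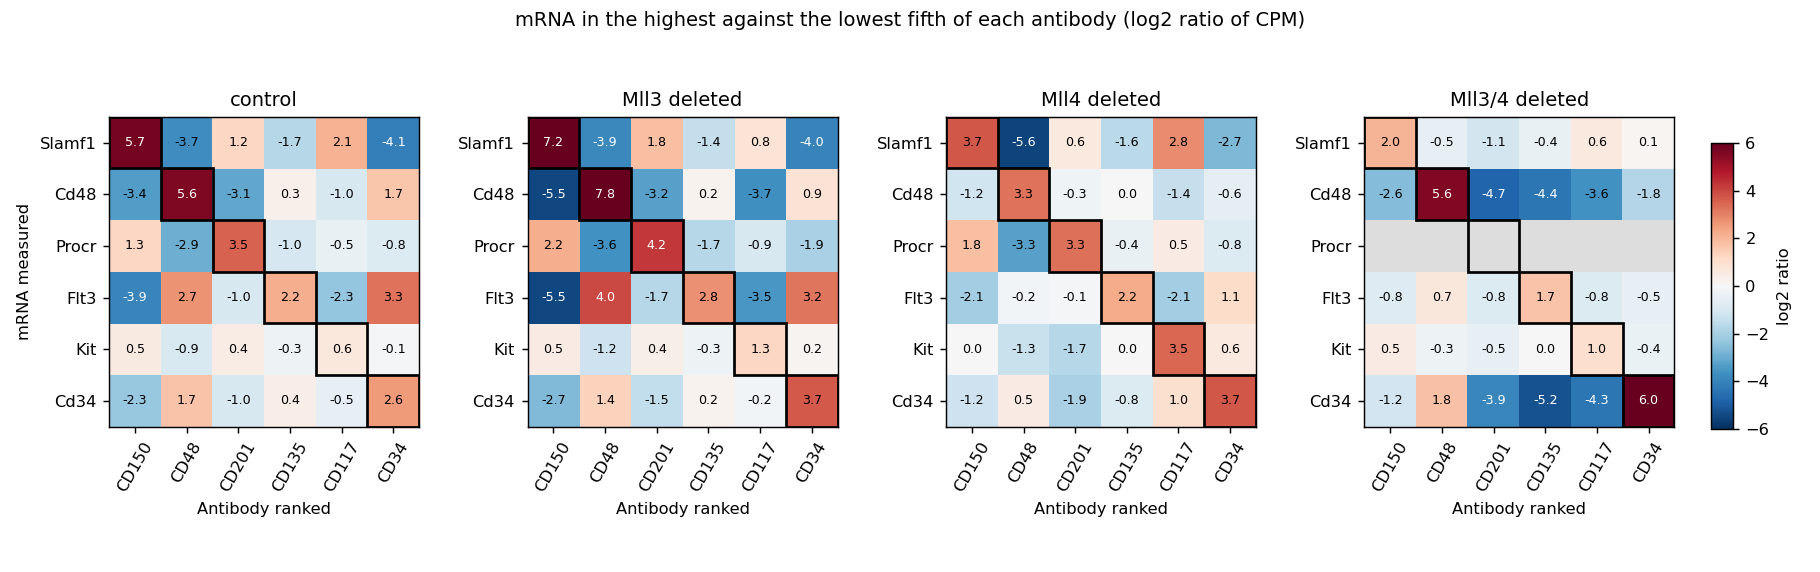
log2 ratio of CPM between the highest and the lowest quintile of each antibody (columns) for each of the 6 mRNAs (rows), 1 panel per library; own pairs are outlined, colours are capped at 6 in either direction, and Procr in the Mll3/4-labelled library is grey for its 7 UMIs. The outlined diagonal is positive in every panel drawn, from 0.65 for Kit in the control to 7.82 for Cd48 in the Mll3-labelled library, and Slamf1 by CD48 and Cd48 by CD150 are negative in the control at -3.71 and -3.37.

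Per barcode, the relation was described by rank correlations, which cannot be set against the log2 ratios over quintiles. Barcodes were thinned to 3000 RNA UMIs each, which left out 14, 17, 134 and 33 shallower ones and left 7260, 6084, 4659 and 4715. Spearman correlations between the UMIs of a member and its centred antibody, in the order control, Mll3, Mll4, Mll3/4, were 0.40, 0.42, 0.23 and 0.25 for Cd48, and 0.38, 0.51, 0.45 and 0.14 for Cd34. They were 0.19, 0.21, 0.13 and 0.06 for Slamf1 and 0.11, 0.18, 0.52 and 0.18 for Kit. Flt3 gave 0.21, 0.25, 0.10 and 0.14, and Procr 0.26, 0.29 and 0.13, with no value in the Mll3/4-labelled library, where no thinned barcode held a Procr UMI. These describe barcodes of 1 library each, which share its depth and free RNA, and 45.1% to 100% of barcodes held 0 thinned UMIs of a member. The correlations also depended on the depth of thinning. For Cd48 in the control they were 0.30 at 1500, 0.40 at 3000 and 0.54 at 6000 UMIs. For Kit in the Mll4-labelled library they were 0.48, 0.52 and 0.49.

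The antibody counts of barcodes with and without an mRNA show the same relation on another scale. In the control, barcodes with 0, 1 and at least 2 thinned Cd48 UMIs had median CD48 counts of 464.5, 1598 and 2109. For Cd34 the CD34 medians were 118, 193 and 226. For Slamf1 the CD150 medians were 20 with 0 UMIs, in 97.5% of barcodes, and 170 with 1 UMI. For Procr the CD201 medians were 21, 44 and 83, and for Flt3 the CD135 medians 18, 23 and 28. CD117 hardly differed with Kit, at 210.5, 224 and 225.5. Of the Mll3/4-labelled library, barcodes with 0, 1 and at least 2 Cd48 UMIs had CD48 medians of 99, 2448 and 3932, so its few barcodes with Cd48 mRNA had higher CD48 medians than control barcodes with as many UMIs.

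The third comparison set the libraries side by side within the same ranges of centred antibody. The antibody counts within a range could still differ between libraries. The borders of the control quintiles were applied to all libraries, and mRNA was compared in each range in which both libraries had at least 100 barcodes. Cd48 in the Mll3-labelled library was at 18.5, 68.3, 136 and 203 CPM in the upper 4 ranges of CD48, against 16.4, 68.2, 137 and 201 in the control. The log2 ratios in the upper 3 of these were 0.00 (-0.11 to 0.12), -0.00 (-0.10 to 0.08) and 0.01 (-0.05 to 0.08). In the lowest range Cd48 was at 1.67 against 4.09 CPM, and 46.6% of that library's barcodes fell there, although the borders were set by the control. Slamf1 in the Mll3-labelled library was likewise not called in any of the 5 ranges of CD150, and 42.0% of its barcodes fell in the highest one, with 29.6 against 32.8 CPM. Procr was not called in any range of CD201 in that library. With counts that were not centred, 4 of 5 Cd48 ranges and 2 of 5 ranges each of Slamf1 and Procr were called lower in the Mll3-labelled library, so the match rests on the scale.

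Procr in the Mll4-labelled library was lower in every range of CD201, at 2.82, 4.05, 6.87, 10.7 and 29.4 CPM against 8.56, 14.9, 24.6, 45 and 98.9. Flt3 was lower in every range of CD135 there, from 16.2 against 30.6 CPM in the lowest to 75.9 against 137 in the highest range. Kit was at 164 against 161 CPM in the lowest range of CD117, at 356 against 233 in the next to highest, and at 1200 against 251 in the highest. Kit mRNA in that library thus departed from the control where CD117 was high. For Cd48 no range was called there.

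Cd48 in the Mll3/4-labelled library was lower in all 5 ranges of CD48, at 0.832, 1.59, 11.9, 28.4 and 76.1 CPM. Barcodes in the highest range had a median of 2950 CD48 counts, against 2371 in the control, and 76.1 against 201 CPM of Cd48. Flt3 was at 25.5 CPM in the highest range of CD135, against 137 in the control, and 86.5% of the library's barcodes fell there. Slamf1 was at 5.44 against 32.8 CPM in the highest range of CD150, where the median CD150 count was 74 against 207. Kit was at 253 against 251 CPM in the highest range of CD117, which held 93.3% of the barcodes, a log2 ratio of 0.01 (-0.04 to 0.05), and lower in the range below it, at 149 against 233 CPM. The median CD117 count in that highest range was 527 against 315. For Cd34 98.2% of barcodes fell in the lowest range of CD34, where Cd34 was at 1.31 against 76.2 CPM. The median CD34 count there was 12 against 42. These ranges of CD150, CD117 and CD34 therefore did not match the counts. Procr was lower in all 4 ranges that could be compared. Kit in its highest range was thus the 1 of 18 compared ranges in that library that was not called lower, and no range was called higher. With counts that were not centred, Slamf1 was called lower in 2 of 4 ranges there and Kit in 1 of 5.

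Over all 6 members, 7 of 30 ranges were called lower and none higher with the Mll3 label, and 12 of 30 lower and 3 higher, 2 of Kit and 1 of Slamf1, with the Mll4 label. Over all genes at 20 CPM or more in the same ranges, 3.35% were called lower and 2.51% higher with the Mll3 label, and 13.8% and 11.4% with the Mll4 label. The share was 19.0% lower and 13.9% higher with the Mll3/4 label, where fewer ranges held enough barcodes.

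**Figure D5:**
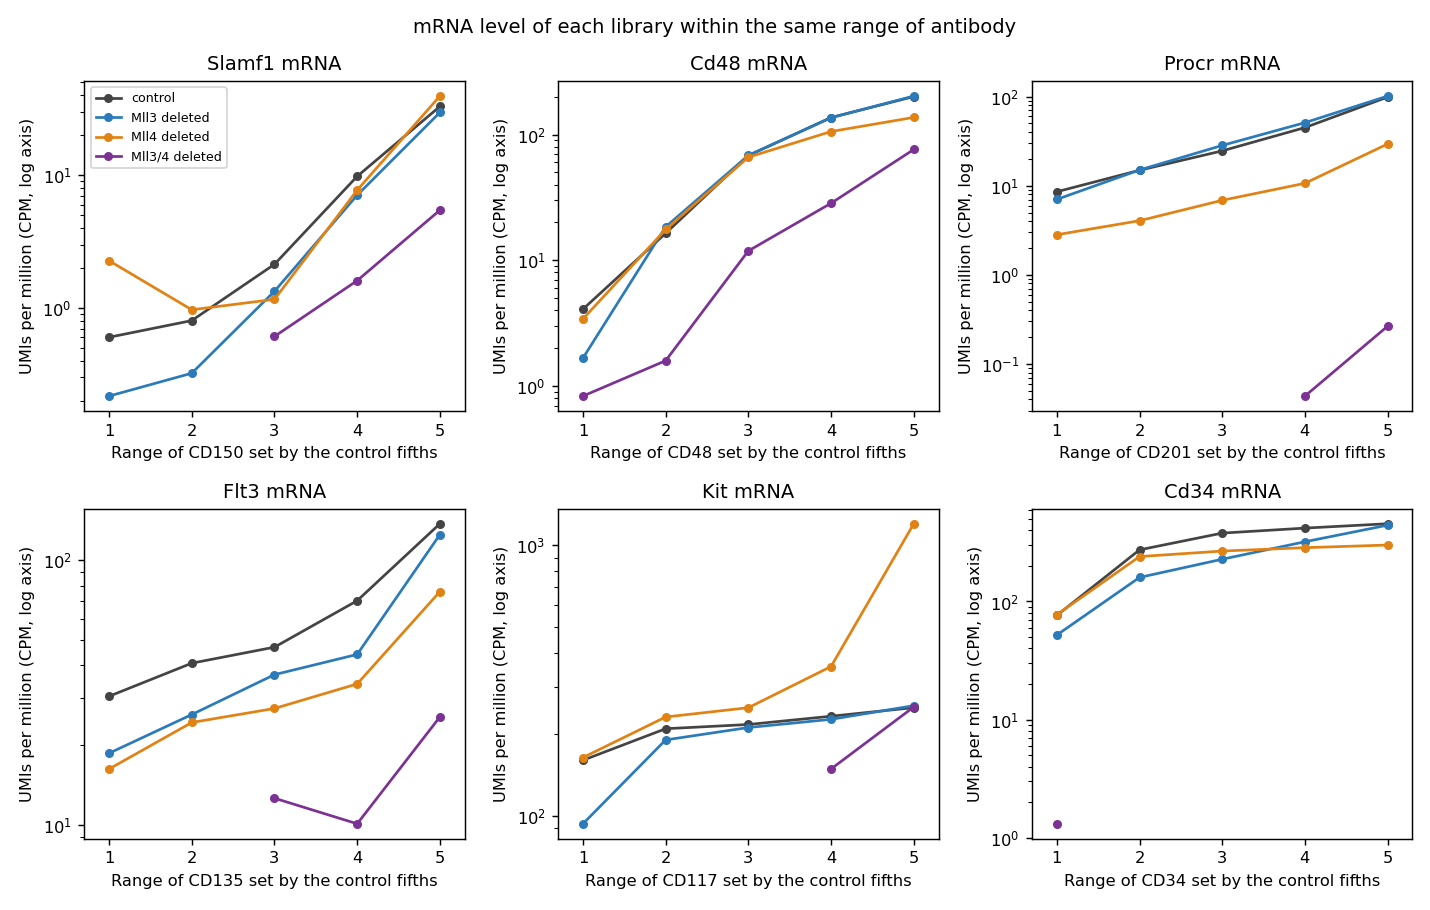
mRNA level (CPM, log axis) of each member and library within the ranges of its own antibody set by the control's quintiles, drawn without intervals. Points are drawn where a library had at least 100 barcodes in the range and at least 1 UMI. Cd48 of the Mll3-labelled library lies on the control in the upper 4 ranges, and Kit of the Mll4-labelled library reaches 1200 CPM in the highest range against 251.

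A few barcodes held much of some mRNAs. Of the Mll3/4-labelled library, 25 of 4748 barcodes carried fewer than 3 B lineage markers, and they held 130 of its 263 Cd34 UMIs (49.4%) and 5 of its 7 Procr UMIs. Cd34 was at 199 CPM in these 25 and at 2.65 CPM in all others, where the library value was 5.18. Their median CD34 count was 388. Of the 580 Cd48 UMIs, 49 (8.45%) came from them, so Cd48 rested on them less. Of the Mll4-labelled library, 590 of 4793 barcodes carried at least 5 mast cell or basophil markers, and they held 13595 of 43682 Kit UMIs (31.1%). Kit was at 1728 CPM in them, with a median of 825 CD117 counts, and at 267 CPM in the others, nearer the control's 215. Without barcodes with 3 or with 5 markers of mature cells in every library, the log2 ratio of Kit there was 0.35 and 0.40, and neither was called.

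The members were also read in barcodes with transcripts of 1 cell type. Such a class is a range of a marker count, not a type, and none of the 6 members is in its list. Barcodes with at least 5 of 8 stem cell markers (such as Hlf, Mecom and Fgd5) numbered 1517 in the control, 2215 with the Mll3 label, 789 with the Mll4 label and 9 with the Mll3/4 label. In the first 3 Slamf1 was at 16.2, 25.1 and 17.0 CPM and Procr at 46.3, 44.2 and 28.2 CPM. Both stood above their whole-library levels in the same library. Cd48 was at 54.0, 18.0 and 49.3 CPM there, and the median CD150 count was 92, 375 and 72. The lower Cd48 and higher CD150 of the Mll3-labelled library were thus also seen within this class, in which the Mll4-labelled library stood near the control for Slamf1 and Cd48 but not for Procr.

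Barcodes with at least 3 of 6 lymphoid-primed markers (such as Dntt, Satb1 and Il7r) had Flt3 at 180 CPM in the control, 144 with the Mll3 label, 122 with the Mll4 label and 24.0 with the Mll3/4 label. This class was 8.25% of the control and 89.9% of the Mll3/4-labelled library, where its median barcode had 12123 CPM of B lineage markers beside 3247 of its own list, against 28.6 and 760 in the control. The Mll3/4 value is therefore not one of a like class. In the control this class carried more CD135, with a median of 37 counts, than the library as a whole, with 19. A total of 4270 barcodes of the Mll3/4-labelled library met the rule, with a CD135 median of 31. Barcodes with at least 5 of 8 B lineage markers numbered 185 in the Mll3-labelled and 4712 in the Mll3/4-labelled library. Between these, Kit was at 41.3 and 247 CPM, Cd48 at 125 and 10.6, Flt3 at 41.1 and 23.4, and Cd34 at 35 and 2.66. Their antibodies differed in the same directions for CD117, with medians of 78 and 498.5, for CD48, 3880 and 102, and for CD34, 37 and 13. CD135 went against Flt3, with medians of 21 and 31. The B lineage barcodes of the Mll3/4-labelled library thus carried Kit and little CD48, and those of the Mll3-labelled library the reverse.

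Beyond the members, a fixed rule named the genes that each antibody separated most in the control, and the values of the Mll3-labelled library are given beside it. The 3 mutant libraries had no part in the choice. Of the 36 pairs of a gene and an antibody, 34 kept the control's sign with the Mll3 label, 34 with the Mll4 label and 21 with the Mll3/4 label. Signs were counted at any level, also where a gene was absent. In the Mll3/4-labelled library Chil3 over CD135 and Car1 over CD34, both counted with the other sign, were at 0 CPM in both quintiles. Barcodes high in CD150 had more Cavin2, a caveola protein gene (log2 8.66 in the control and 8.66 in the Mll3-labelled library), Pf4, a platelet chemokine (5.98 and 5.15), and Nupr1 (5.08 and 5.37). They had less Dntt, the terminal transferase of lymphoid progenitors (-5.98 and -6.84), less Satb1 (-4.51 and -5.98) and less Wfdc17 (-4.06 and -5.22). Barcodes high in CD48 had more Dntt (7.24 and 8.53) and more of the granule genes Ctsg (7.03 and 8.04) and Mpo (6.83 and 7.85). They had less Mmrn1 (-5.07 and -3.22), Nupr1 (-4.87 and -4.27) and Aldh1a1 (-3.91 and -3.56). Dntt and Nupr1 were thus named for both antibodies, in opposite directions. Wfdc17 had the other sign over CD150 in the Mll4-labelled library (0.61). In the Mll3/4-labelled library Pf4, Dntt and Satb1 had the other sign over CD150 (-2.45, 0.53 and 0.10) and Dntt over CD48 (-0.17), while Ctsg and Mpo kept theirs over CD48 (7.19 and 7.61). Pf4 was almost absent there, at 0 CPM in the highest and 0.265 CPM in the lowest quintile of CD150.

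Barcodes high in CD34 had more Bex6 (log2 2.75 in the control and 4.21 in the Mll3-labelled library), Tespa1 (2.67 and 2.33) and Satb1 (2.65 and 2.55). They had less Car1, an erythroid carbonic anhydrase (-9.20 and -9.33), Cavin2 (-7.95 and -7.97) and Camp (-7.61 and -5.55). Barcodes high in CD201 had less Ctsg (-5.23 and -4.41), Elane (-5.20 and -3.73) and Mpo (-4.96 and -4.06), all granule genes of myeloid progenitors. They had more Jchain, a plasma cell gene (8.31 and 3.29), Cd74 (3.33 and 3.66) and Camp (2.91 and 1.95). A high CD201 rank in the control thus went with Procr and also with genes of mature cells. Satb1 and Cavin2 had the other sign over CD34 in the Mll3/4-labelled library (-0.18 and 1.26). Car1 was at 0 CPM in both the highest and the lowest quintile of CD34 there, so its 0.24 gives no direction. Camp over CD201 had the other sign there (-0.31) but was almost absent. It was at 0.115 CPM in the highest and 0.171 CPM in the lowest quintile.

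For CD135 and CD117, 6 of the 12 leading genes were genes of neutrophils, B cells or plasma cells. CD135 was highest with the neutrophil genes Ngp (8.50 in the control, 2.09 in the Mll3-labelled library), Camp (8.01 and 2.25) and Chil3 (8.0 and 2.60), and lowest with Nupr1 (-1.69 and -1.28), Slc18a2 (-1.39 and -1.69) and Apoe (-1.36 and -1.29). CD117 was lowest with the B and plasma cell genes Ly6d (-8.64 and -9.57), Jchain (-8.4 and -8.59) and Mzb1 (-7.82 and -9.42), and highest with Ms4a3 (1.95 and -0.89), Elane (1.90 and -1.40) and Dach1 (1.67 and 2.40). Ms4a3 and Elane were therefore both negative over CD117 in the Mll3-labelled library and both positive in the control. Apoe over CD135 had the other sign in the Mll4-labelled library (1.72). In the Mll3/4-labelled library the other sign was seen over CD117 for Ms4a3 (-6.92), Elane (-10.2), Dach1 (-0.08) and Mzb1 (0.21). Over CD135, Ngp and Camp had the other sign there (-1.77 and -2.50) but were almost absent. Both were at 0.0893 CPM in the highest quintile, and at 0.405 and 0.708 CPM in the lowest. Chil3 was at 0 CPM in both, so its -0.18 comes only from the 0.5 UMIs added and gives no direction.

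Few barcodes carried these mature cell genes. In the control, barcodes with at least 3 of 6 plasma or mature B cell markers made up 2.75% of the lowest quintile of CD117 and 1.17% of the highest quintile of CD201. The summed level of the plasma and mature B cell markers was 25.2 CPM in the lowest and 7875 CPM in the highest quintile of CD201 in the control, and 11957 and 29.1 CPM in those of CD117. The 6 neutrophil markers were at 15.5 CPM in the lowest and 3406 CPM in the highest quintile of CD135 in the control. The part of these cells in the gradients of Procr, Flt3 and Kit was not tested as a cause. Without barcodes that carried 3 markers of mast, macrophage, T or plasma cells, all 6 control gradients kept their direction, and Kit alone dropped under 1.5-fold. Neutrophil markers were not part of that rule, so this run does not bear on the neutrophil genes over CD135.

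The relatives and partners of the 6 proteins were taken from a fixed list and are counted at any level, since a minimum level would keep low genes only where a mutant library raised them. Of all genes with a UMI in either library, 8.13% were called higher and 5.56% lower in the Mll3-labelled comparison, 17.8% and 13.8% in the Mll4-labelled, and 16.4% and 22.0% in the Mll3/4-labelled comparison. Of 10 SLAM family genes, ligands and adaptors, 2 were higher and 2 lower with the Mll3 label, 6 and 2 with the Mll4 label, and 3 and 5 with the Mll3/4 label. The 3 higher ones were the receptors Slamf6 (166 against 0.964 CPM, log2 7.42), Slamf7 (182 against 2.80, 6.02) and Ly9 (31.7 against 10.6, 1.58). Cd244a, the receptor that binds CD48, was lower at 13.7 against 22.1 CPM (log2 -0.69), and Cd84 was at -0.32. Slamf1 and Cd48 were both lower in that library, so the family did not move in 1 direction there.

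Of 12 class III receptor kinases, ligands and adaptors, 1 was higher and 3 were lower with the Mll3 label, 6 higher and 1 lower with the Mll4 label, and 5 higher and 6 lower with the Mll3/4 label. The higher one with the Mll3 label was Socs2, a cytokine signalling inhibitor, at 45.8 against 25.2 CPM (log2 0.86). With the Mll4 label Csf1r, the macrophage growth factor receptor, was at 70.4 against 1.90 CPM (log2 5.21), and the negative regulators Cblb, Cbl and Sh2b3 were at 0.93, 0.71 and 0.59 on the log2 scale. Flt3l, the ligand of CD135, was at 3.93 against 6.54 CPM there (log2 -0.74) and at 0.807 with the Mll3/4 label (-3.0). Socs2 in the Mll3/4-labelled library was at 362 against 25.2 CPM (log2 3.84), while the phosphatase gene Ptpn6 was at 6.71 against 102 CPM (-3.92) and Grb2 at -1.0.

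Of the genes listed with CD34, Selp, the gene of P-selectin, was at 0.532 against 44.3 CPM in the Mll3/4-labelled library (log2 -6.36), with log2 ratios of -0.40 and -0.44 in the Mll3- and Mll4-labelled libraries. Crkl, an adaptor, was at 0.45 on the log2 scale in the Mll3/4-labelled library. Cd34 and Selp were therefore both low there, but of the 5 genes of this list 2 were called higher and 2 lower. The list thus did not move in 1 direction in that library. Of 6 genes of the protein C pathway, 0 were called with the Mll3 label. With the Mll4 label 2 were higher and 2 lower, and with the Mll3/4 label 0 were higher and 4 lower. The thrombin receptor F2r was at 29.2 CPM in the control. Its log2 ratio was -0.29 in the Mll3-labelled and -1.01, called lower, in the Mll4-labelled library. With the Mll3/4 label F2r was counted with 28 UMIs against 3486 in the control. Thbd was at 16.2 against 1.59 CPM with the Mll4 label (log2 3.35, called higher). Tfpi was at 4.13 against 16.3 CPM with the Mll3/4 label (-1.97, called lower). With the Mll3/4 label none of the 6 averaged 20 CPM or more.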

How the data were processed

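The deposited values were raw counts of RNA UMIs and antibody tags per barcode, written by the authors as sparse matrices. Cell Ranger 6.1.1 and mm10 are named per the submitters' processing notes, and 10x Genomics 3′ version 3.1 chemistry per the labels' protocols. The filter behind the deposited barcodes, the antibody clones and their dilution are not given in the sources used here. Groups came from sample titles.

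Counts were summed over barcodes that passed a minimum of 1000 genes and a maximum of 10% mitochondrial UMIs, and given per 1000000 gene UMIs (CPM) or as a share of the 6 antibodies. Log2 ratios had 0.5 UMIs added to each sum. A call needed 1.5-fold and a 95% counting interval without 1 (exact Poisson for sums, exact conditional binomial for ratios, exact Clopper-Pearson for shares). The intervals cover counting error only. Centred log ratios used natural logs with 1 added to each of the 6 counts. The background was all genes that averaged 20 CPM or more. Doublets were not removed: an alternative left out the 5% of barcodes with the most UMIs. Free RNA was not measured. The calculations were tested on simulated data. Python 3.11.15, numpy 2.4.6, scipy 1.17.1, pandas 2.3.3, matplotlib 3.10.9 and edgeR 4.0.16 (TMM factors only) were used.

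Besides the 6 members, the genes named were, for each antibody, the 3 with the highest and the 3 with the lowest ratio between the outer quintiles of the control, with at least 50 CPM in 1 of both. That rule left out members, genes of mitochondrial DNA, ribosomal proteins, haemoglobins, antigen receptor segments, sex-linked genes and unnamed gene models. Members and lists were chosen with earlier results of these data known. Gene positions were taken from GENCODE release 21 on GRCm38, which held 32158 of the 32285 gene identifiers (99.6%). Promoter sequences came from RefSeq (GRCm38.p6). Some genes of the fixed lists are not reported here.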

Additional observations from a re-analysis of the deposited data

Results flagged for a closer look

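Slamf1 mRNA over the quintiles of CD201 had opposite directions in the control and the Mll3/4-labelled library. The log2 ratio of the highest to the lowest quintile was 1.24 in the control and -1.11 in the Mll3/4-labelled library, where it rested on 9 against 27 UMIs. Cd48 mRNA over the quintiles of CD34 did the same, at 1.67 in the control and -1.77 in the Mll3/4-labelled library, with 74 against 299 UMIs. Neither difference was tested, as each genotype was 1 library.

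Barcodes left out by the filter also carried antibody. Their median antibody count was 993 in the Mll3-labelled library, above the 622.5 of the control's left-out barcodes, and this difference was not tested either.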

How the results depend on the processing

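No mRNA value and no antibody share that was called changed its direction under any alternative run. The antibody calls depended on the scale. Of the 6 antibodies, 1, 2 and 3 were called in the Mll3-, Mll4- and Mll3/4-labelled libraries by their shares. With each barcode weighted equally 2 were called in the Mll3-labelled and 5 in the Mll3/4-labelled library. By mean count per barcode the numbers were 3, 1 and 5, and by median centred log ratio 2 in the Mll3-labelled and 6 in the Mll3/4-labelled library. On that last scale CD150 and CD201 in the Mll3/4-labelled library stood above the control, at log2 1.32 and 0.85, although CD150 was called lower there by mean count per barcode (-0.70). The mRNA calls of the Mll4-labelled library depended on which barcodes were kept, and 5 members were called in the main run. Leaving out barcodes with 3 markers of mature cells removed 3150 of its barcodes and 231 of the control's, and 2 members were called. Leaving out those with 5 markers removed 1150 and 47, and 3 members and 4 antibodies were called there. The part of cell makeup in these calls was not tested. In matched ranges of centred antibody 7 ranges were lower in the Mll3-labelled library, and 18 with counts that were not centred. The alternatives that leave out barcodes with 5 markers, keep only B lineage barcodes of the Mll3/4-labelled library or match on uncentred counts were chosen after seeing the data. The other 146 counts recomputed stayed within 1.5 times, and of the single members' values 297 moved beyond their counting interval and 261 did not.

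Slamf1 in the Mll4-labelled library, at -0.60, lay next to the 1.5-fold limit and missed it with the stricter barcode filter (-0.37), without the 5% of barcodes with the most UMIs (-0.54) and with TMM scaling (-0.56). TMM scaling moved all genes by -0.10, 0.04 and 0.07 on the log2 scale. Without barcodes with 3 markers of mature cells Flt3 there was at -0.35 and Procr at -0.85. No paired analysis was possible because each group was 1 library and no test was run. Depth limits Slamf1 and Procr most, with 87 and 7 UMIs in the Mll3/4-labelled library.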
